A study of Mus musculus with 18 samples.

Results

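Phosphatidylcholine (PC) and phosphatidylethanolamine (PE), the main phospholipids of mammalian cell membranes, are built by a small set of enzymes, and 10 genes of this set (Chka, Chkb, Etnk1, Pcyt1a, Pcyt1b, Pcyt2, Chpt1, Cept1, Ptdss1 and Pisd) were followed in RNA-Seq of the ventral dentate granule cell layer. The genes were chosen by name for their enzymatic step, with earlier results of these data known, out of 34620 genes listed in the count files. All 10 were among the 17421 genes with enough counts to be tested. The study asked whether a deficit of the serotonin 1A receptor (5HT1A-R) in the mother alters granule cells of her offspring and of their offspring. Libraries came from male Swiss Webster mice aged 8 to 12 weeks, 2 each of WT, F1 and F2. All males sequenced were genetically WT. WT males had WT mothers and grandmothers, F1 males had 5HT1A-/+ mothers and grandmothers, and F2 males had WT mothers (F1 females) and 5HT1A-/+ grandmothers. The labels name no animals behind a library, and the study drew its animals from at least 3 litters, so p-values measure the spread between libraries. Both comparisons use the same 2 WT libraries.

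In the CDP-choline and CDP-ethanolamine branches (together the Kennedy pathway), a kinase phosphorylates choline or ethanolamine, a cytidylyl transferase activates the product to a CDP-alcohol, and a phosphotransferase joins it to diacylglycerol. In parallel, phosphatidylserine (PS) is made from PC or PE by base exchange, carried into mitochondria and decarboxylated there to PE. Neurons depend on these routes for membrane growth at neurites and synapses, and the cytidylyl transferase step is regarded as the usual control point of the choline branch.

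Chka, Chkb, Pcyt2 and Pisd fell in F1 and in F2, to between 46.8% and 63.6% of their WT level, and none rose at the threshold used, a q-value (p adjusted over all genes tested by the Benjamini-Hochberg method) under 0.01 in edgeR's exact test. This is 4 of 10 lower in each comparison, where 8.54% of all genes tested were lower in F1 and 8.1% in F2. Higher calls were 0 of 10, where 3.77% of genes were higher in F1 and 3.86% in F2. At an unadjusted p under 0.05, 2 of the 10 were higher in F1 and 1 in F2, and neither edgeR's quasi-likelihood test nor DESeq2 called a rise. All 4 genes that fell stand in lists of lipid genes that the study drew from its own calls in these libraries. Neither their number among the 10 nor their direction is thus independent evidence. The other 6 genes, Etnk1, Pcyt1a, Pcyt1b, Chpt1, Cept1 and Ptdss1, did not pass the test in either comparison. Falls were thus found at the kinase step, at 1 of the cytidylyl transferases and at the end of the PS route, and not among the phosphotransferases. Over the 10 genes the median log2 fold change was 0.062 in F1 and -0.026 in F2, beside medians of 0.01 and -4e-04 over all genes tested.

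Values are given as CPM, read counts scaled to the library size with TMM normalization, which can be compared between libraries for the same gene. In the plot of CPM by library, the WT points of Chka, Chkb, Pcyt2 and Pisd stand apart from all F1 and F2 points.

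**Figure D1:**
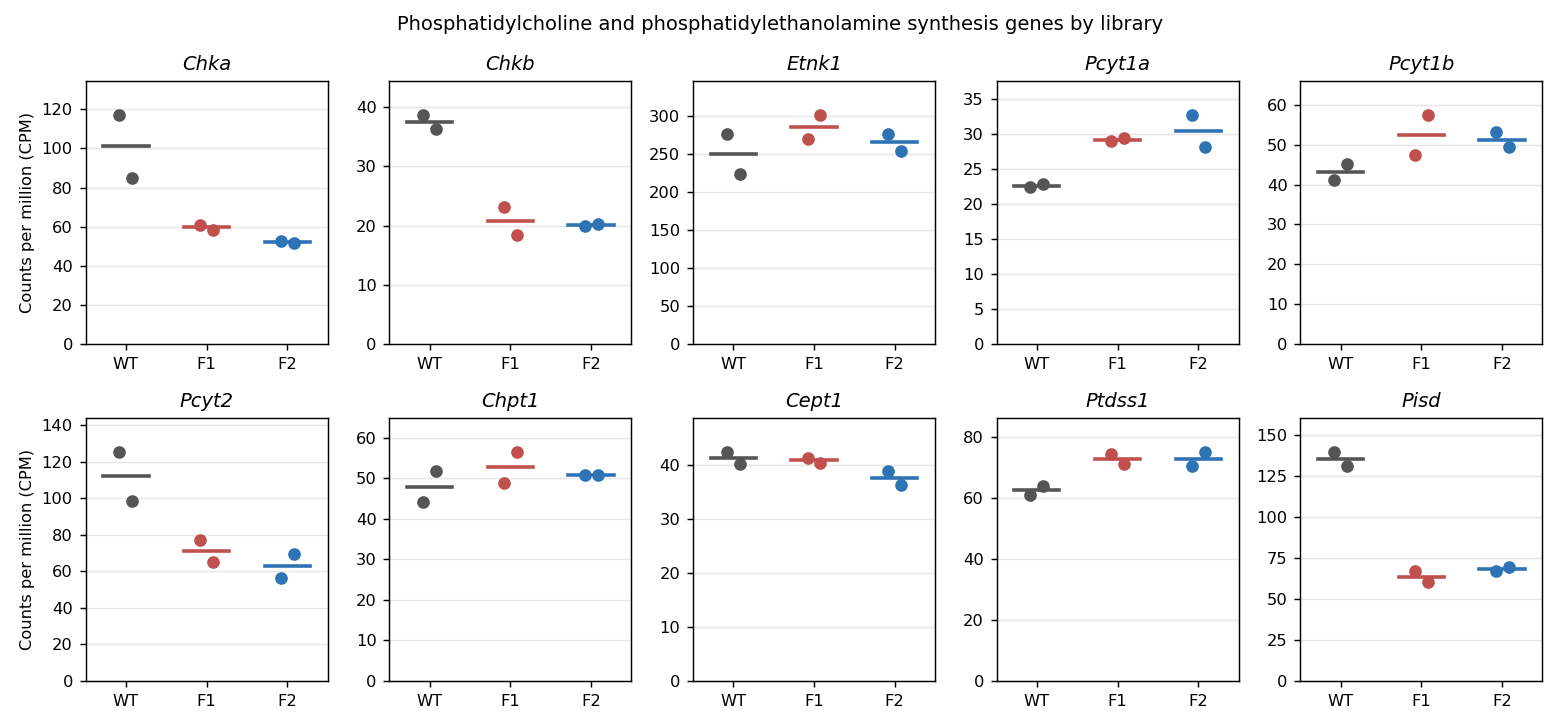
CPM of each of the 10 genes (vertical axes from 0, each gene with its own scale) in the 2 WT, 2 F1 and 2 F2 libraries. Points are libraries and lines are group means. Chka, Chkb, Pcyt2 and Pisd lie lower in all F1 and F2 libraries than in both WT libraries, and Pcyt1a, Pcyt1b and Ptdss1 lie higher.

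At the kinase step, both choline kinase genes fell and the ethanolamine kinase gene did not pass the test. Chka encodes choline kinase alpha, an enzyme that also acts on ethanolamine, and lies on chromosome 19 from 3851773 to 3894369 (mm9, plus strand). It stood at 117 and 85.0 CPM in the WT libraries, 61.1 and 58.4 in F1, and 52.6 and 51.6 in F2. Every F1 and F2 library was below both WT libraries, and the WT libraries were farther apart than those of F1 or F2. The log2 fold change was -0.76 ± 0.14 (SE) in F1 (q = 6.58e-06) and -0.95 ± 0.15 in F2 (q = 6.91e-09, edgeR's exact test). Without WT replicate 1, the higher of the pair, the F1 change was -0.51 (q = 0.00753) and the call held, as it did in all alternatives (q between 4.6e-10 and 0.00753). Chkb, on chromosome 15 from 89246836 to 89260339 on the minus strand, encodes choline kinase beta, the isoform known from muscle. Its level was 38.6 and 36.3 CPM in WT, 23.0 and 18.4 in F1, and 20.0 and 20.3 in F2. Again the groups did not overlap with WT, and the log2 fold change was -0.85 ± 0.15 in F1 (q = 7.01e-07) and -0.90 ± 0.15 in F2 (q = 2.09e-07). In the GENCODE M1 annotation, 52.8% of the exon bases of Chkb are shared with Cpt1b, the neighbouring carnitine palmitoyltransferase gene, or with C730034F03Rik. Reads wholly within shared bases may not have been counted, but the study does not name the annotation used for counting. Cpt1b itself had between 1 and 9 reads in every library. C730034F03Rik was at 3.44 and 2.57 CPM in WT, 1.78 and 1.88 in F1, and 2.43 and 2.90 in F2, and was not called (q = 0.0488 in F1).

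The ratio of Chka to Chkb, on the scale of CPM per kilobase of exon, was 1.46 and 1.13 in WT, 1.28 and 1.53 in F1, and 1.27 and 1.23 in F2. These ranges overlap, so the pair fell without a change in proportion larger than the spread between libraries. Etnk1, on chromosome 6 from 143115750 to 143157062, encodes ethanolamine kinase, which accepts ethanolamine and not choline. It was measured at 276 and 224 CPM in WT, 270 and 301 in F1, and 276 and 254 in F2. The groups overlapped, and the log2 fold change was 0.19 in F1, with -0.07 and 0.45 as the bounds of its 95% interval (q = 0.321), and 0.09 in F2, with bounds of -0.17 and 0.34 (q = 0.706). Those intervals leave out falls of the size seen for Chka and Chkb.

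Promoters of genes that fell are shown as a description, and shared control of these genes was not tested. Each holds 300 bases, from 250 before to 50 after the annotated start in RefSeq (GRCm38.p6, a later build than that of the counts). The RefSeq table held a promoter for 8 of the 10 genes, 14 in all, and none for Pcyt2 and Ptdss1. Shown are Chka at chr19:3851523-3851822 on the plus strand, Chkb at chr15:89429878-89430177 on the minus strand and Pisd at chr5:32785577-32785876 on the minus strand, each 5′ to 3′ on the strand of the gene. For Pisd the farther upstream of its 2 annotated starts is given. Capitals mark, on either strand, the letters CCAAT, and the letters GGGCGG of the GC box, to which Sp1 factors bind.
Chka: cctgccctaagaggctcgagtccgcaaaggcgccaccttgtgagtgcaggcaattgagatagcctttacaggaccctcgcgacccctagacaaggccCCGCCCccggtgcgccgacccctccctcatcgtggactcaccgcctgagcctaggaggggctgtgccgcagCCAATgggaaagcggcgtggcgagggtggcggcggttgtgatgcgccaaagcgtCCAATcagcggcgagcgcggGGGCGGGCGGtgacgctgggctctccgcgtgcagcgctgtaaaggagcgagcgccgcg
Chkb: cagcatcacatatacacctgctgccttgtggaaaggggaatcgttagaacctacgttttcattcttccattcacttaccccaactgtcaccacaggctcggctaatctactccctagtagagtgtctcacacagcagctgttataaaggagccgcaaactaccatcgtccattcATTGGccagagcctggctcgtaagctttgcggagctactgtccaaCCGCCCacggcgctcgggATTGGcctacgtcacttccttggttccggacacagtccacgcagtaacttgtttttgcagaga
Pisd: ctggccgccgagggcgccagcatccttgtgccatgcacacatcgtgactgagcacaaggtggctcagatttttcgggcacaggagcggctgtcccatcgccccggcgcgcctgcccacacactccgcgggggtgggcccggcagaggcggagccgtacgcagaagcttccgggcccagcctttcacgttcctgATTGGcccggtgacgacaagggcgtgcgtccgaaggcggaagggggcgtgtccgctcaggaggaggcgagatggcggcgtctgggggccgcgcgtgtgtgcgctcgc

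CCAAT is found 2 times in the Chka promoter, 2 times in Chkb and 1 time in this Pisd promoter. The other Pisd promoter, at chr5:32746293-32746592, held CCAAT 0 times and GGGCGG 1 time. Of the 8 genes with a promoter, 6 held CCAAT in at least 1 promoter, among them Chpt1, Cept1 and Pcyt1b, which did not fall. Counted by promoter, 7 of the 14 held these letters, and 37.4% of all 32851 promoters in the table did. GGGCGG stood in 9 of the 14 promoters and in 35.7% of all promoters. Some of the 9 overlap, so that a site is counted more than 1 time, among promoters of Pcyt1a and of Cept1. The Chka promoter held GGGCGG 3 times, with a pair that overlaps, Chkb held it 1 time, and the Pisd promoter shown held none. The letters TCACNCCAC, a sterol regulatory element, occurred in 2 of 3 promoters of Pcyt1a, which overlap and hold the same site, and in no other promoter of the 8 genes, and in 1.24% of all promoters. The E-box CACGTG (7.15% of all promoters) and the cAMP response element TGACGTCA (1.79%) were in none of the 14. The GC content of the promoters shown was 68.7% for Chka, 51.7% for Chkb and 70% for Pisd.

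The genes of the cytidylyl transferases, which form the CDP-alcohols, lay on different sides of WT. Pcyt2 encodes CTP:phosphoethanolamine cytidylyl transferase of the ethanolamine branch and lies on chromosome 11 from 120471401 to 120479250 on the minus strand. Its CPM was 125 and 98.7 in WT, 77.2 and 65.4 in F1, and 56.6 and 69.8 in F2. No F1 or F2 library reached the lower WT library. The log2 fold change was -0.65 ± 0.15 in F1 (q = 0.00029) and -0.83 ± 0.15 in F2 (q = 2.1e-06). The F1 call was lost in edgeR's quasi-likelihood test (q = 0.0108), and in the exact test without WT replicate 1 (log2 fold change -0.47, q = 0.0482) or without F1 replicate 2 (-0.53, q = 0.0421). The F2 call was lost without F2 replicate 1 (-0.68, q = 0.0105), and the sign was negative in every alternative (the F1 q ran from 5.46e-08 to 0.0482 and the F2 q from 1.78e-12 to 0.0105).

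Pcyt1a and Pcyt1b encode the alpha and beta forms of CTP:phosphocholine cytidylyl transferase, the choline branch enzyme. Pcyt1a, on chromosome 16 from 32431007 to 32475156, was at 22.5 and 22.8 CPM in WT, 29.0 and 29.4 in F1, and 32.7 and 28.1 in F2. All F1 and F2 libraries were above WT, by a log2 fold change of 0.37 ± 0.14 in F1 (q = 0.049) and 0.42 ± 0.14 in F2 (q = 0.0197), which did not pass the threshold of 0.01 and passed one of 0.05. Pcyt1b, on chromosome X from 90900202 to 90995290, is the form associated with brain. It stood at 41.1 and 45.1 CPM in WT, 47.4 and 57.3 in F1, and 53.1 and 49.3 in F2, above WT in each library and with q = 0.121 in F1 and 0.183 in F2. Within each library, the ratio of Pcyt2 to Pcyt1a in CPM per kilobase was 7.37 and 5.73 in WT, 3.53 and 2.94 in F1, and 2.29 and 3.29 in F2. The lowest WT ratio was above the highest ratio of F1 and F2. With 2 libraries against 2, an exact permutation test of such a ratio cannot give a two-sided p below 0.333, so no test is given.

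The phosphotransferase genes, whose enzymes complete PC and PE, did not pass the test. Chpt1, choline phosphotransferase on chromosome 10 from 87915490 to 87966818, was at 44.1 and 51.7 CPM in WT, 49.0 and 56.5 in F1, and 50.9 and 50.9 in F2. These overlap, with log2 fold changes of 0.14 (95% interval from -0.12 to 0.40) in F1 and 0.09 in F2 and q = 0.501 and 0.7. Cept1, which encodes the enzyme that uses both CDP-choline and CDP-ethanolamine, lies on chromosome 3 from 106305178 to 106350720. Its level was 42.3 and 40.1 CPM in WT, 41.3 and 40.4 in F1, and 38.8 and 36.2 in F2. The F2 libraries were the lowest, but the log2 fold change of -0.14 ± 0.13 did not pass (q = 0.486), and in F1 it was -0.01 (95% interval from -0.26 to 0.23, q = 0.965). The ratio of Cept1 to Chpt1 per kilobase was between 2.07 and 2.56 in WT and between 1.90 and 2.25 in F1 and F2.

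In the PS route, the decarboxylase gene fell and the synthase gene did not pass the test. Ptdss1 encodes PS synthase 1, which makes PS from PC, on chromosome 13 from 67033766 to 67099337. It stood at 60.9 and 63.9 CPM in WT, 74.4 and 71.0 in F1, and 70.6 and 75.0 in F2. Each F1 and F2 library was above WT, with a log2 fold change of 0.22 ± 0.12 in both comparisons that did not pass (q = 0.169 and 0.167). Pisd encodes the mitochondrial PS decarboxylase. Its gene lies on chromosome 5 from 33078949 to 33128295 on the minus strand, and its CPM was 140 and 131 in WT, 66.9 and 60.1 in F1, and 67.3 and 69.7 in F2. The groups were far apart against a spread of a few CPM, and F1 stood at 46.8% and F2 at 50.5% of the WT mean (q = 4.22e-17 and 7.14e-14). Pisd kept its call in all 15 alternatives that used all libraries and in all 6 that left 1 out, with log2 fold changes between -1.16 and -1.01 for F1 and between -1.02 and -0.90 for F2. The ratio of Pisd to Ptdss1 per kilobase was 2.06 and 1.85 in WT and between 0.76 and 0.86 in F1 and F2. By this measure Pisd was the higher gene of the pair in WT and the lower in every F1 and F2 library. That order depends on the lengths used. In the GENCODE M1 annotation, 30.3% of Pisd exon bases and 6.69% of Ptdss1 exon bases are shared with other genes. Reads wholly within shared bases may not have been counted, but those bases are part of the lengths.

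**Figure D2:**
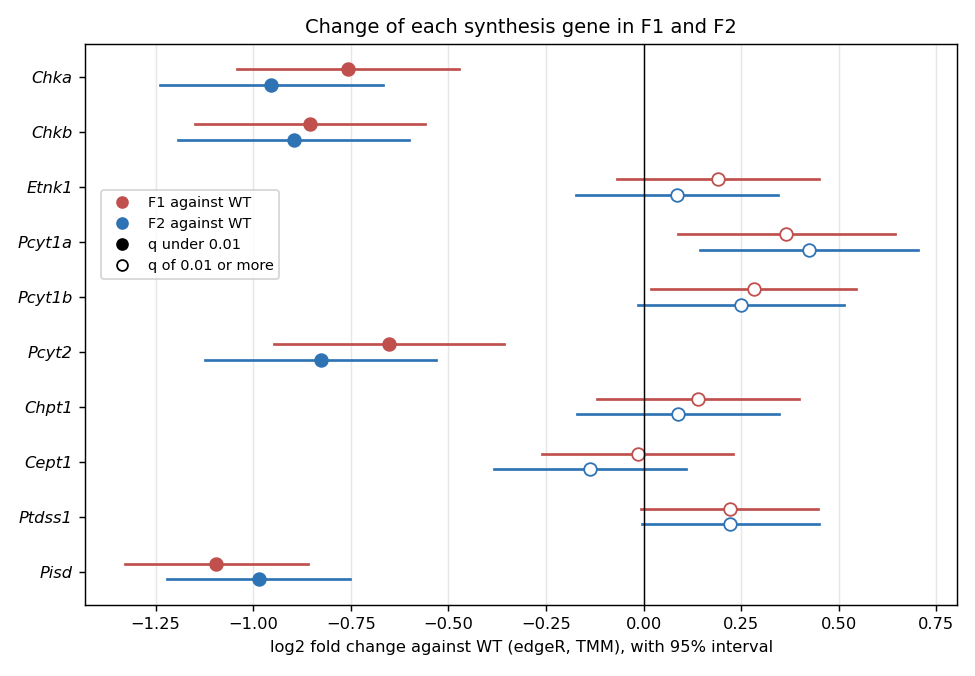
Log2 fold change against WT (horizontal axis) of each of the 10 genes in F1 (red) and F2 (blue), with bars for the 95% interval. Filled points are q under 0.01 in edgeR's exact test: Chka, Chkb, Pcyt2 and Pisd, all below 0. The intervals of Pcyt1a lie above 0 without passing the threshold.

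Pisd has copies in the mouse genome that share part of its sequence, and these fell further than Pisd. Of the 50-base windows of Pisd exons, 84.6% occur nowhere else in the mm9 genome, and others occur also in Pisd-ps1 and Pisd-ps2. For the exons of Pisd-ps1 and Pisd-ps2 the share that occurs nowhere else was 73.1% and 56.8%. Reads that align to several places were not counted. Pisd-ps1, a processed transcript on chromosome 11 from 3025907 to 3031007, was at 174 and 154 CPM in WT, 42.9 and 35.4 in F1, and 47.8 and 46.8 in F2, a log2 fold change of -2.07 ± 0.13 in F1 (q = 8.39e-51) and -1.79 ± 0.13 in F2 (q = 2.38e-38). Pisd-ps2, on chromosome 17 from 3076578 to 3084183, was at 29.7 and 26.8 CPM in WT, 8.91 and 9.52 in F1, and 10.8 and 10.1 in F2, with changes of -1.62 and -1.43. Sfi1, a centrosome protein gene next to Pisd-ps1 on chromosome 11, changed by -1.60 (q = 1.63e-28) and -1.67 (q = 3.71e-30). C330019G07Rik, which overlaps Pisd on chromosome 5 and shares 30.3% of its exon bases, was between 67.2 and 82.8 CPM in all libraries and did not pass (log2 fold change 0.10, q = 0.652, and 0.02, q = 0.942).

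No difference between F2 and F1 passed the test at any of the 10 genes, where 0.74% of all genes tested were called between F2 and F1. Neither the quasi-likelihood test nor DESeq2 called 1 of the 10. Over all 17421 genes tested they called 2 and 103, so their 0 of 10 adds little. In the exact test 0 of the 10 had an unadjusted p under 0.05. For the genes that fell, the log2 difference of F2 from F1 was -0.20 for Chka (95% interval from -0.48 to 0.09), -0.04 for Chkb (from -0.34 to 0.26), -0.18 for Pcyt2 (from -0.47 to 0.12) and 0.11 for Pisd (from -0.13 to 0.35). In the order of single libraries, 4 genes had both F1 libraries below both WT libraries and 3 had both above, where 30.6% and 29.8% of all genes tested did so. In F2, 5 genes were below, Cept1 added to the 4 that fell, and 3 above, where 32% and 31% of all genes did so. The 3 above were Pcyt1a, Pcyt1b and Ptdss1 in both comparisons. These shares are near the background, so the order of libraries adds nothing to the calls.

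By level per length, the WT libraries ranked Etnk1 highest at 38.9 CPM per kilobase, followed by Pisd at 35.6, Pcyt2 at 25.8, Ptdss1 at 18.2 and Cept1 at 13.2. Chka (8.40), Pcyt1b (8.04), Chkb (6.45), Chpt1 (5.76) and Pcyt1a (3.94) were lower. Lengths are all annotated exon bases of a gene, so a gene with many annotated exons of little use is placed too low. Bases shared with other genes, where reads may not have been counted, are also in these lengths. Chkb (52.8% shared), Pisd (30.3%) and Cept1 (28.3%) may therefore be placed too low as well. On these lengths, Pisd was at 16.7 CPM per kilobase in F1 and 18.0 in F2, below Ptdss1 at 21.2 and 21.3. Pcyt2 was at 16.4 and 14.5. Chka, at 4.97 and 4.34, came close to Pcyt1a (5.08 and 5.28). In WT, Etnk1 and Pisd, and likewise Chka and Pcyt1b, differed by less than the SD of the more abundant gene of the pair between its libraries. The summed CPM of all 10 genes was 908 and 799 in WT, 739 and 758 in F1, and 719 and 705 in F2.

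Genes around these steps were read from 7 further lists with 56 tested genes (of 61 listed, 58 in the files). In F1, 3 rose and 3 fell (10.7%), where 3.77% of all genes tested were higher and 8.54% lower, and in F2, 4 rose and 5 fell (16.1%), where 3.86% were higher and 8.1% lower. These shares are near those of all genes. The quasi-likelihood test called 5 of these in F1, without Gdpd3, and 3 in F2, Slc44a2, Taz and Crls1. DESeq2 called 5 in F1 and 8 in F2. Leaving out WT replicate 1 left 1 call in F1 and 2 in F2, and F2 had 2 without either of its own libraries and 5 without WT replicate 2. None of the 6 tested genes that complete the branches passed by the exact test, the quasi-likelihood test or DESeq2, while 2 in F1 and 1 in F2 had an unadjusted p under 0.05. Ept1, which encodes the ethanolamine phosphotransferase, was at 41.4 and 37.0 CPM in WT, 45.8 and 48.6 in F1, and 50.8 and 49.9 in F2, with q = 0.11 and 0.0242. Ptdss2, which encodes the PS synthase that uses PE, was between 47.2 and 54.3 CPM in all libraries (q = 0.901 and 0.513).

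Of 5 tested choline transporter genes, 1 fell in F1, and in F2 1 fell and 1 rose. Slc44a2, a member of the choline transporter-like family, fell from 55.7 and 49.7 CPM in WT to 36.3 and 32.0 in F1 and 33.3 and 34.9 in F2 (log2 fold change -0.63 in both, q = 5.16e-05 and 5.52e-05). Slc44a1, the choline transporter-like protein 1 gene, was at 51.2 and 58.7 CPM in WT, 71.9 and 69.7 in F1, and 77.1 and 74.7 in F2. It rose in F2 (0.47 ± 0.12, q = 0.00153), and in F1 its change of 0.37 did not pass (q = 0.0167). Slc44a5, the most abundant of the list, was between 73.7 and 89.9 CPM with q = 0.282 and 0.803.

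Upstream, Agpat3, an acyltransferase that forms phosphatidic acid, rose by 0.45 on the log2 scale in F1 (q = 0.00117) and 0.37 in F2 (q = 0.00948), and the other 11 genes of phosphatidic acid and diacylglycerol supply did not pass. Among acyl chain remodelling genes, Lpgat1, a lysophospholipid acyltransferase, rose by 0.53 (q = 6.04e-05) and 0.42 (q = 0.00215), 1 of 8. Of 13 genes for the release of choline and ethanolamine, 2 passed in F1 and 3 in F2. Enpp6, a choline-specific phosphodiesterase of oligodendrocytes, rose from 0.56 and 0.84 CPM in WT to 2.71 and 1.94 in F1 and 1.83 and 2.19 in F2. Gdpd3, a lysophospholipase D, fell from 1.79 and 1.87 CPM to between 0.59 and 0.90 in F1 and F2. Pnpla6, which encodes neuropathy target esterase, a PC-degrading lysophospholipase, fell in F2 (-0.51, q = 0.00224) and was at -0.37 in F1 (q = 0.0338). Pld3, the most abundant gene of that list, was at 384 and 366 CPM in WT and between 388 and 497 in F1 and F2 (q = 0.069 and 0.609).

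Of 5 plasmalogen synthesis genes, 0 passed by edgeR's exact or quasi-likelihood test or DESeq2, and 0 had an unadjusted p under 0.05. Far1, the fatty acyl-CoA reductase that is highest among them, was at 104 and 98.5 CPM in WT and between 84.8 and 91.5 in F1 and F2 (q = 0.206 and 0.22). Among 7 genes of mitochondrial phospholipids and lipid transfer, Taz, listed on chromosome X and encoding the cardiolipin acyltransferase tafazzin, fell from 71.2 and 65.9 CPM in WT to 41.2 and 39.6 in F1 and 41.8 and 39.8 in F2 (-0.76, q = 1.82e-08, and -0.75, q = 4.53e-08). Crls1, cardiolipin synthase, was at 83.5 and 85.7 CPM in WT, 90.9 and 79.9 in F1, and 58.1 and 60.6 in F2. It fell in F2 (-0.51 ± 0.12, q = 0.000361) and not in F1 (0.01, q = 0.965). Pgs1, which encodes phosphatidylglycerophosphate synthase of the same route, was between 77.4 and 99.2 CPM (q = 0.202 and 0.695).

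**Figure D3:**
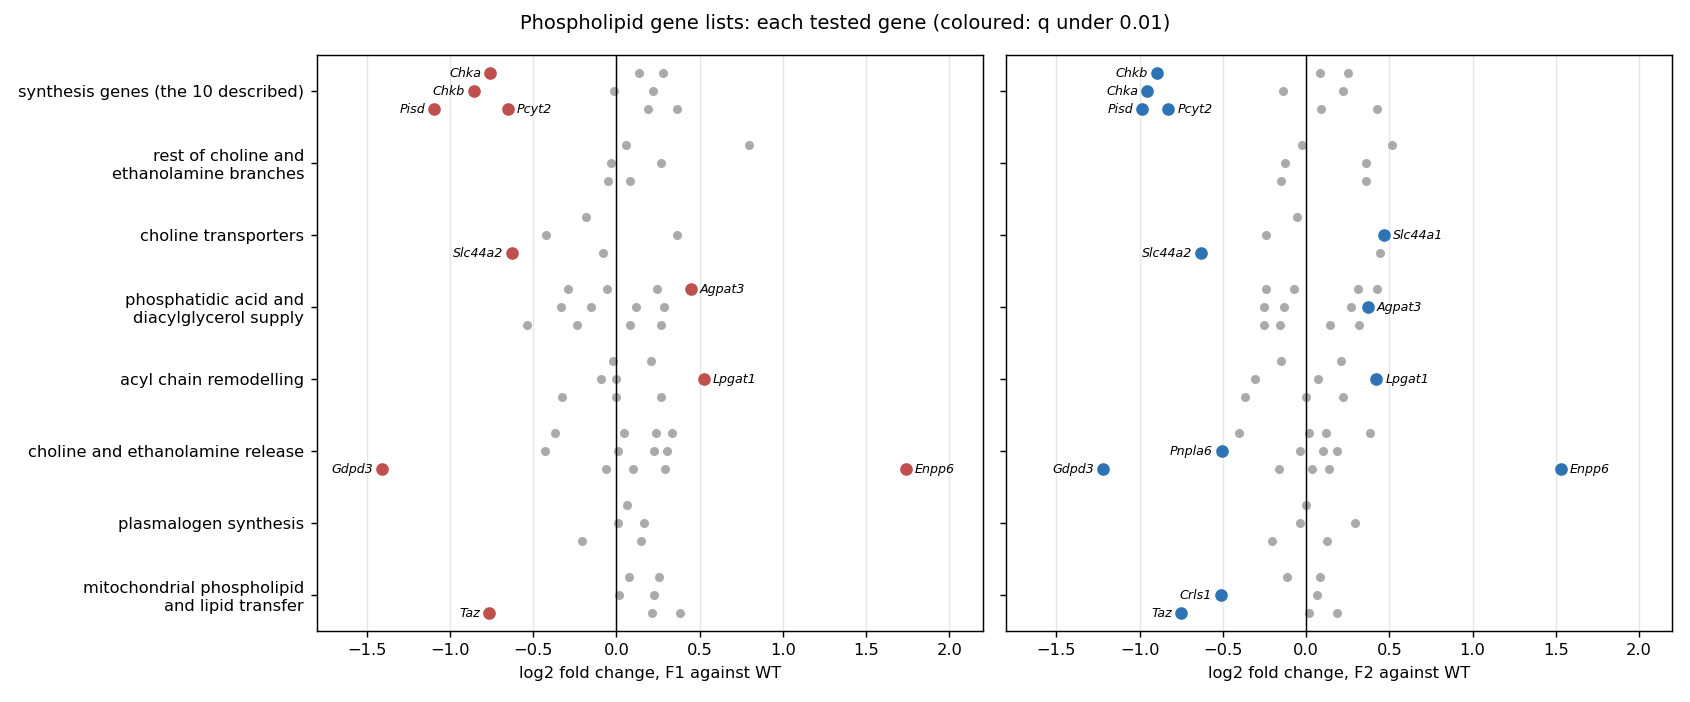
Log2 fold change against WT (horizontal axes) of every tested gene of 8 phospholipid lists, F1 on the left and F2 on the right. Each point is a gene and coloured, named points are q under 0.01 in edgeR's exact test. The 10 synthesis genes form the top list, with 4 genes named on the side below 0, and the other lists hold between 0 and 3 named genes each.

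Signs of RNA and cell composition also differed between the groups, and their part in the falls of Chka, Chkb, Pcyt2 and Pisd was not tested. In bulk tissue, fewer cells of a type and less RNA per cell cannot be told apart. Long RNAs kept in the nucleus (7 of the 8 listed were in the files, led by Malat1) summed to 8282 and 8005 CPM in WT, 4088 and 3224 in F1, and 3245 and 3611 in F2, and 6 of 7 fell in F1 and 7 of 7 in F2. Malat1 changed by -1.27 in both comparisons. Genes known for detained introns, such as Clk1 and Clk4, summed to 1299 and 1107 CPM in WT and between 692 and 745 in F1 and F2, with 5 of 7 lower in F1 and 6 of 7 in F2. The share of uniquely aligned reads that were not on annotated exons was 17.7% and 20.7% in WT, 13.8% and 12.3% in F1, and 13.9% and 17.4% in F2. In F2 replicate 2 this share was at 90.8% of the WT mean. In the same library Chka, Chkb, Pcyt2 and Pisd were at between 51.2% and 62.2% of the WT mean. The nuclear RNA sum was at 44.3% and the detained intron sum at 57.5%.

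Dentate granule cell markers were present in every library: Prox1 was between 228 and 345 CPM, C1ql2 between 111 and 158 and Dsp between 42.5 and 115. Of 6 such markers 0 passed in F1 or F2 by the exact test, the quasi-likelihood test or DESeq2. At an unadjusted p under 0.05 in the exact test, 1 was higher and 1 lower in F1, and 3 were higher in F2. Between F2 and F1, 0 passed by these tests, and 5 were higher in F2 at an unadjusted p under 0.05. Their summed CPM was 956 and 1002 in WT, 836 and 1018 in F1, and 1229 and 1121 in F2. Oligodendrocyte markers, Mbp included, summed to 1136 and 2062 CPM in WT, 3103 and 2328 in F1, and 1604 and 3013 in F2. By the exact test 4 of 10 were higher in F1 and 2 in F2, and 0 by the quasi-likelihood test or DESeq2. At an unadjusted p under 0.05 in the exact test, 10 were higher in F1 and 8 in F2, and 0 were lower. F2 replicate 1 lay within the WT range of the oligodendrocyte sum. In this single library Pisd, Chka, Chkb and Pcyt2 were at between 49.6% and 53.3% of the WT mean. The astrocyte list was at 162.8% there, the nuclear RNA list at 39.8% and the detained intron list at 61.3%. Whether cell composition had a part in the falls was not tested. Astrocyte markers summed to between 857 and 959 CPM in WT and between 1033 and 1478 in F1 and F2. By the exact test 1 of 6 was higher in F1 and 4 in F2, Gfap among the 4. DESeq2 called 1 and 4, and the quasi-likelihood test 0 and 1. With an unadjusted p under 0.05 in the exact test, 5 of the 6 were higher in F1 and 6 in F2. Of 7 microglia markers, 5 were higher in F2 by the exact test, 4 by DESeq2 and 0 by the quasi-likelihood test, and 0 passed in F1 by any of the tests, where 4 had an unadjusted p under 0.05. Their sums were 118 and 119 CPM in WT and between 141 and 183 in F1 and F2. Endothelial and interneuron markers each had 1 higher in F2, and 1 of 6 mossy and CA cell markers, Csf2rb2, was lower in F1 and F2. With an unadjusted p under 0.05 in the exact test, 5 of 5 endothelial and 2 of 6 interneuron markers were higher in F2. In F1 this held for 1 of each. Htr1a, the receptor gene deficient in the founding mothers, was between 49.4 and 68.6 CPM and did not pass (q = 0.332 and 0.266). Reads counted on genes numbered between 26358165 and 33727936 per library.

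**Figure D4:**
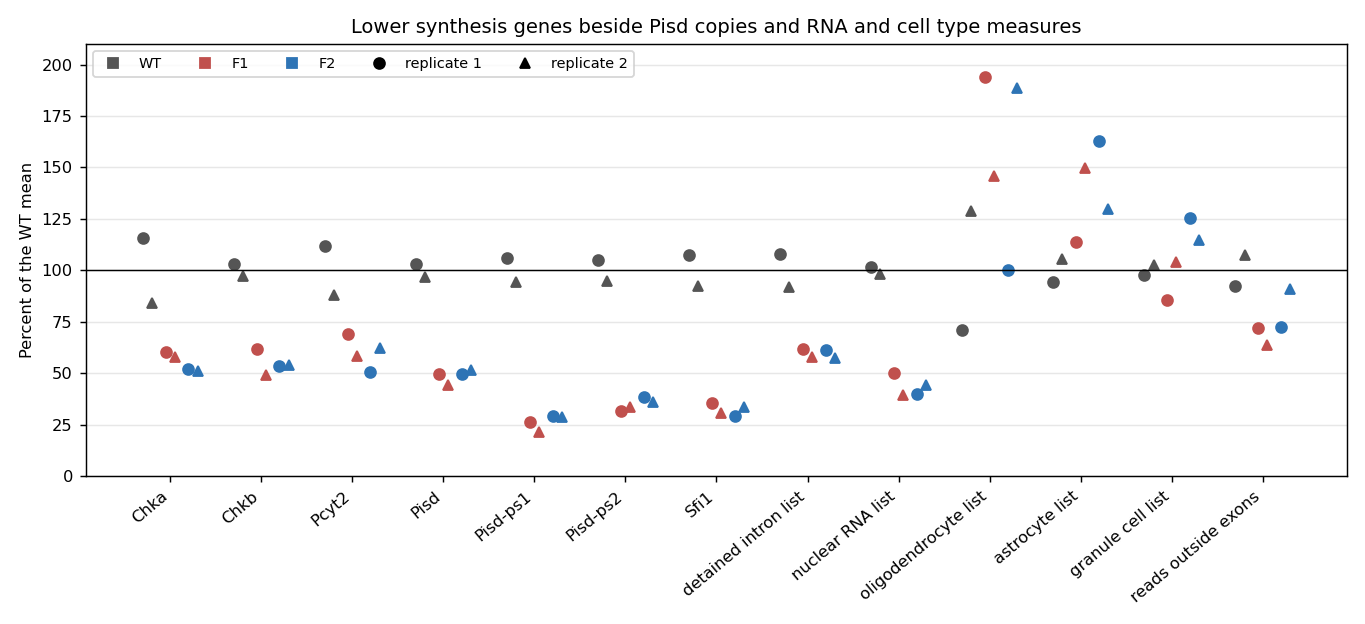
Level in each library as a percent of the WT mean (vertical axis) for the synthesis genes that fell, the Pisd copies and Sfi1, the summed CPM of RNA and cell type lists, and the share of uniquely aligned reads outside exons. Circles are replicate 1 and triangles replicate 2. The genes, copies, nuclear RNA and detained intron lists lie below 70% in all F1 and F2 libraries, while the oligodendrocyte list spreads from 71% to 194%.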

How the data were processed

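RNA was isolated from the microdissected ventral dentate granule cell layer, and 6 libraries were made from polyA RNA; the 12 methylation samples were not used here. Per the labels and the study's methods, the authors sequenced single-end reads of 50 bases, aligned them to mm9 with TopHat without new junctions and counted them with HTSeq in its intersection-strict mode. The deposited values are raw read counts for each gene symbol. Reads that aligned to several places, reached outside exons or lay in exons of more than 1 gene were not counted, so genes with copies are undercounted. Counting error is larger for low genes such as Gdpd3 and Enpp6, with between 18 and 82 reads per library.

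Genes with low counts were removed by filterByExpr, TMM factors were computed, and groups were tested by the exact test of edgeR 4.0.16 (R 4.3.3), with tagwise dispersion over all 6 libraries and Benjamini-Hochberg adjustment over 17421 genes. That study used edgeR with a tagwise dispersion; its methods state a threshold of 0.05 and its results 0.01, which was taken here. Standard errors follow from mean counts and tagwise dispersion, and 95% intervals are 1.96 standard errors. The procedure was tested on simulated data. Replicates were no duplicates (chi-square per degree of freedom between 20.03 and 25.31). Alternatives were the quasi-likelihood test and the likelihood-ratio test of edgeR with and without a replicate block, DESeq2 1.42.0, other normalizations, filters and dispersions, a GC content and length correction, and each library left out.

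The 10 genes and all lists were chosen with earlier results of these data known. Named are all 10 genes, every called gene and the most abundant gene of each further phospholipid list, the copies of Pisd and their neighbours, and the defining markers; 1 marker is not reported here by name. Positions and exon lengths are from GENCODE M1 (mm9), which matched 33294 of 34620 symbols. Genes of the lists at too low a level for a test were Chat, Slc44a3, Cpt1b and Gm16066. Promoters are from RefSeq. Python 3.11.15 was used for plots.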

Additional observations from a re-analysis of the deposited data

Results flagged for a closer look

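The effect on Crls1, the cardiolipin synthase gene, differed between F1 and F2: its log2 fold change against WT was 0.01 in F1 and -0.51 in F2, a difference of -0.53 (q = 0.00229, edgeR's exact test over all genes). Both F2 libraries were below both F1 libraries. DESeq2 also called this difference. The quasi-likelihood test did not, and it called only 2 of all 17421 genes tested between F2 and F1. Of the 10 synthesis genes, 0 differed between F1 and F2 in this way.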

How the results depend on the processing

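The counts of called synthesis genes stayed between 3 and 5 in F1 and in F2 (4 in each as reported) and at 0 between F2 and F1 in every alternative. Over single genes and settings, 622 of 630 values kept their side of the threshold, and no called value changed sign, while small differences that were not called did in some settings; the 8 others were the calls of Pcyt2 (5 lost) and Pcyt1a (3 gained, at q under 0.05 or with crossed F2 numbers). A correction for GC content and length kept the 4 calls in each. For the further phospholipid lists, a threshold of 0.05 gave 11 genes in F1 in place of 6. In F2 (9 as reported), the quasi-likelihood test gave 3 genes, and 2 with the replicate block. Leaving out 1 library gave between 1 and 6 genes in F1, the 1 without WT replicate 1, and between 2 and 9 in F2: 2 without WT replicate 1, F2 replicate 1 or F2 replicate 2, and 5 without WT replicate 2. This also leaves a group with 1 library, whose spread is taken from the others. The ratio of the highest to the lowest WT level among the 10 genes was 11.04 in CPM and 9.873 per kilobase.

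Replicate numbers did not pair the libraries: deviations of same-numbered libraries correlated at -0.02687 (WT and F1), -0.08305 (WT and F2) and -0.1818 (F1 and F2). With the replicate block, the likelihood-ratio test called 4 synthesis genes in F1 and 4 in F2, and 6 and 8 list genes; the quasi-likelihood test with the block called 3 and 4 synthesis genes. With the F2 numbers crossed, an alternative chosen after seeing the data, the likelihood-ratio test called 4 and 5 synthesis genes and 7 and 10 list genes.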
